A study of Homo sapiens with 2 samples.

Results

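Imprinted genes are expressed mainly from the chromosome inherited from one parent, and a few of their transcription units also carry microRNA hairpins. Of these, 5 hairpins outside the large chromosome 14 cluster were examined: hsa-mir-335 at MEST, hsa-mir-483 at IGF2, hsa-mir-675 at H19, and hsa-mir-296 and hsa-mir-298 at the GNAS locus. Every row of the count table that names one of these hairpins was taken, whatever its count. That gave 9 mature miRNAs, since miR-298 is listed with 1 arm and the others with a 5p and a 3p arm, of 2042 mature names from 1600 hairpins in the table. The small RNA was from hCMEC/D3, a human brain microvascular endothelial line immortalised with telomerase and SV40 large T antigen, which stands in for the blood-brain barrier in culture. The 2 libraries are numbered replicate 2 and replicate 8, and the series has no treatment, genotype or second group. The labels do not say whether they came from separate cultures, so the spread between them may be technical. The highest miRNA in both libraries was the endothelial miR-126-3p, with 297696 and 313837 counts.

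MEST and IGF2 are expressed from the paternal allele and H19 from the maternal allele in most tissues, and in the mouse miR-296 and miR-298 come from a paternally expressed antisense transcript of the Gnas locus. A hairpin is cut by Drosha and Dicer into a duplex whose 5p or 3p strand is loaded into an Argonaute protein, and bases 2 to 8 of that strand, the seed, pair with target mRNAs. Among these miRNAs, miR-296 is known from work on angiogenesis in brain endothelium, miR-335 from metastasis of breast cancer and miR-675 from growth of the placenta. The counts do not separate parental alleles, so imprinting itself was not measured.

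The mature sequences are shown because they set which reads can be assigned to each hairpin and which seed each arm carries. They are from RefSeq (GRCh38.p14), where 7 of the 9 arms matched, those of miR-335, miR-675, miR-296 and miR-298. Each runs 5′ to 3′ with the seed in capitals.
miR-296-3p: gAGGGUUGgguggaggcucucc
miR-296-5p: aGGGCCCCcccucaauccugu
miR-298: aGCAGAAGcagggagguucuccca
miR-335-3p: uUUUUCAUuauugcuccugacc
miR-335-5p: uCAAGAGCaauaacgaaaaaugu
miR-675-5p: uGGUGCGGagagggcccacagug
miR-675-3p: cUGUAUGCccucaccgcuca

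The 7 arms carried 7 different seeds. Only miR-675-5p shared its seed with another mature miRNA of the RefSeq table, miR-4466, which had 4 counts in replicate 2 and 9 in replicate 8.
miR-4466: gGGUGCGGgccggcgggg

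Each of the 7 mature sequences had 1 exact match in the GRCh37 genome over both strands, at its own hairpin. No other hairpin of the RefSeq table contained any of them. No arm of the 5 hairpins had a second row in the count table. The arms differed widely in base composition. Those of miR-335 had a GC content of 36.4% (3p) and 30.4% (5p), against a median of 50% over 1716 mature names of the table with a sequence. The arms of miR-296, miR-675 and miR-298 were above that median, from 58.3% in miR-298 to 69.6% in miR-675-5p.

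The hairpins sat in different positions relative to their host genes. On chromosome 7, MIR335 spans 130135952 to 130136045 on the plus strand (GRCh37, as are all positions here), and all 13 MEST transcripts that span it have an intron there. A lncRNA on the opposite strand has an exon over the same bases. On chromosome 11, MIR483 spans 2155364 to 2155439 on the minus strand and falls in an intron of all 9 IGF2 transcripts that span it. MIR675 lies 137.3 kb away on the same strand, at 2017989 to 2018061, and is exonic in 13 of the 28 H19 transcripts that span it. On chromosome 20, MIR296 spans 57392670 to 57392749 on the minus strand. An unnamed lncRNA of the same strand has 1 transcript that spans it, with an exon there. MIR298 lies 531 bases away on the same strand, at 57393281 to 57393368, in no annotated host gene. It is 604 bases from the annotated end of GNAS-AS1, the antisense transcript of the GNAS locus.

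The libraries had nearly equal depth, 2721287 counts in replicate 2 and 2727675 in replicate 8 after repeated rows were reduced to 1 per mature name. Levels are given as CPM, counts scaled to these totals, each with a 95% Wilson interval that covers counting error only, since reads without molecular identifiers are not independent molecules. A count of 0 was taken to allow up to 3 counts, 1.10 CPM at this depth, and the two-sided Wilson interval at 0 counts reaches 1.41 CPM. The libraries were not 1 library deposited a second time, because their counts differed by 60.5 times the chi-square expected per degree of freedom. Adaptor ligation favours some sequences over others, so the order of levels between miRNAs is less certain than the repeat of 1 miRNA's level.

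The 5 hairpins examined were a small part of the profile, and miR-296 made up most of their counts. Together the 9 arms came to 125.3 CPM in replicate 2 and 108.5 CPM in replicate 8, a mean of 116.9 ± 11.9 CPM (SD, n = 2). The miR-296 hairpin held 82.7% of these counts in replicate 2 and 79.7% in replicate 8. An arm counted as detected when each library held 10 or more of its reads. By that threshold 4 of the 9 arms were detected, miR-296-3p, miR-296-5p, miR-335-3p and miR-483-5p, where 26.6% of all mature names were. They belong to 3 of the 5 hairpins, where 28.7% of all hairpins had a detected arm. The 5 hairpins were picked as a known group, so these shares are a description and no test was made of them.

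**Figure D1:**
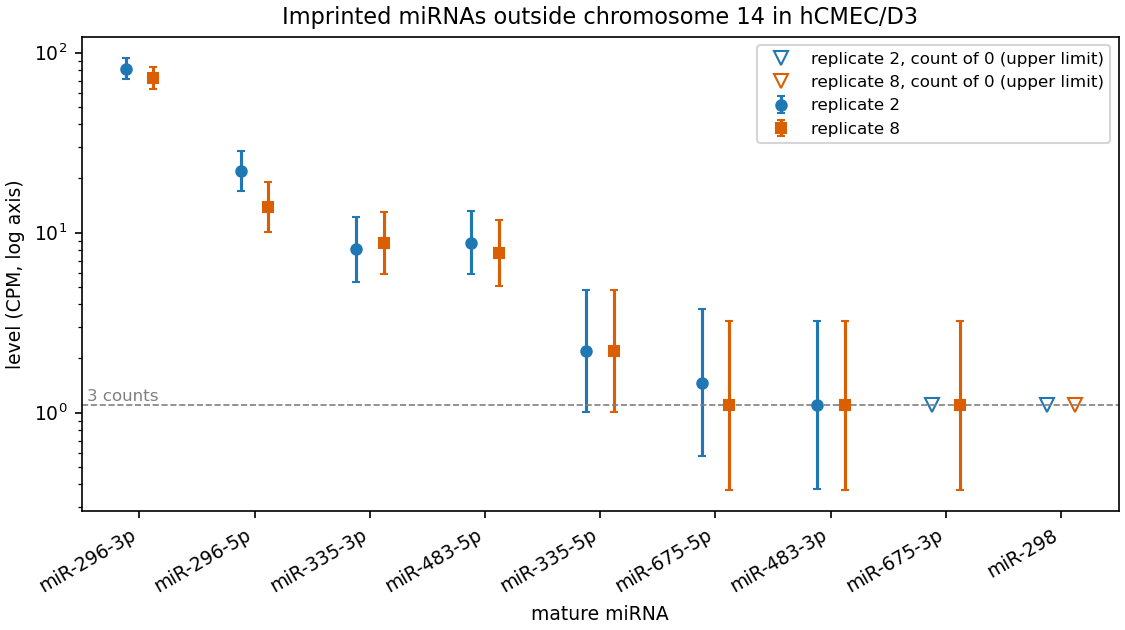
Level of each mature miRNA (CPM, log axis) in replicate 2 (circles) and replicate 8 (squares), with 95% Wilson intervals, and open triangles at 1.10 CPM where the count was 0. The arms of miR-296 lie highest, miR-335-3p and miR-483-5p overlap near 8 CPM, and the intervals of the other arms reach below the level of 3 counts.

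At the GNAS locus, the counts of miR-296-3p were 222 (replicate 2) and 198 (replicate 8). These are 81.6 CPM (71.5 to 93.0) and 72.6 CPM (63.2 to 83.4), a mean of 77.1 ± 6.36 CPM (SD, n = 2). It ranked 234 of the 2042 mature names by mean CPM, above the median of 49.9 CPM over the 543 detected ones. Its intervals in the libraries overlapped. The other arm, miR-296-5p, is the one studied in tumour-induced angiogenesis, where it is reported to lower HGS, a protein that sorts growth factor receptors for degradation. It had 60 and 38 counts, 22.0 CPM (17.1 to 28.4) in replicate 2 and 13.9 CPM (10.2 to 19.1) in replicate 8. The mean was 18.0 ± 5.74 CPM, at rank 371.

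The neighbouring miR-298, reported to target BACE1, the enzyme that starts amyloid beta production, had 0 counts in both libraries. The limit of 3 counts allows it up to 1.10 CPM in either, and its Wilson intervals reach 1.41 CPM. The 2 hairpins are 531 bases apart on the same strand, and the miR-296 hairpin was at 95.1 ± 12.1 CPM. Of all mature names, 44.5% likewise had no count in either library.

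At MEST, the counts of miR-335-3p were 22 and 24, in the same order, a mean of 8.44 ± 0.51 CPM at rank 462. The 5p arm, miR-335-5p, had 6 counts in each library. That is 2.20 CPM, with intervals of 1.01 to 4.81 CPM in both. The 5p arm is the one studied as a suppressor of metastasis through SOX4 and tenascin C, and here it lay under the detection threshold.

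At IGF2, miR-483-5p had 24 and 21 counts, a mean of 8.26 ± 0.79 CPM at rank 463, next to miR-335-3p. The 3p arm, miR-483-3p, studied as an inhibitor of apoptosis through BBC3, had 3 counts in each library. At this depth 3 counts are the level that a count of 0 also allows.

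At H19, miR-675-5p had 4 and 3 counts, or 1.47 CPM (0.57 to 3.78) and 1.10 CPM (0.37 to 3.23). Its partner miR-675-3p had 0 and 3 counts. Over both arms the H19 hairpin had 4 and 6 counts, a mean of 1.83 ± 0.52 CPM. H19 is a long noncoding RNA abundant in fetal tissue, and neither arm of its miRNA reached the detection threshold here.

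The plot of levels shows the order of the arms. The libraries of miR-296-3p lay above those of miR-296-5p, with separate intervals in each library and a ratio of means of 4.29. The libraries of miR-296-5p lay above those of miR-335-3p, but their intervals overlapped in at least 1 library. The order of miR-335-3p and miR-483-5p differed between the libraries, so they could not be ranked. Both were above miR-335-5p, with separate intervals in each library. The libraries of miR-335-5p also lay above those of miR-675-5p, with overlapping intervals. No order could be read among miR-675-5p, miR-483-3p, miR-675-3p and miR-298.

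**Figure D2:**
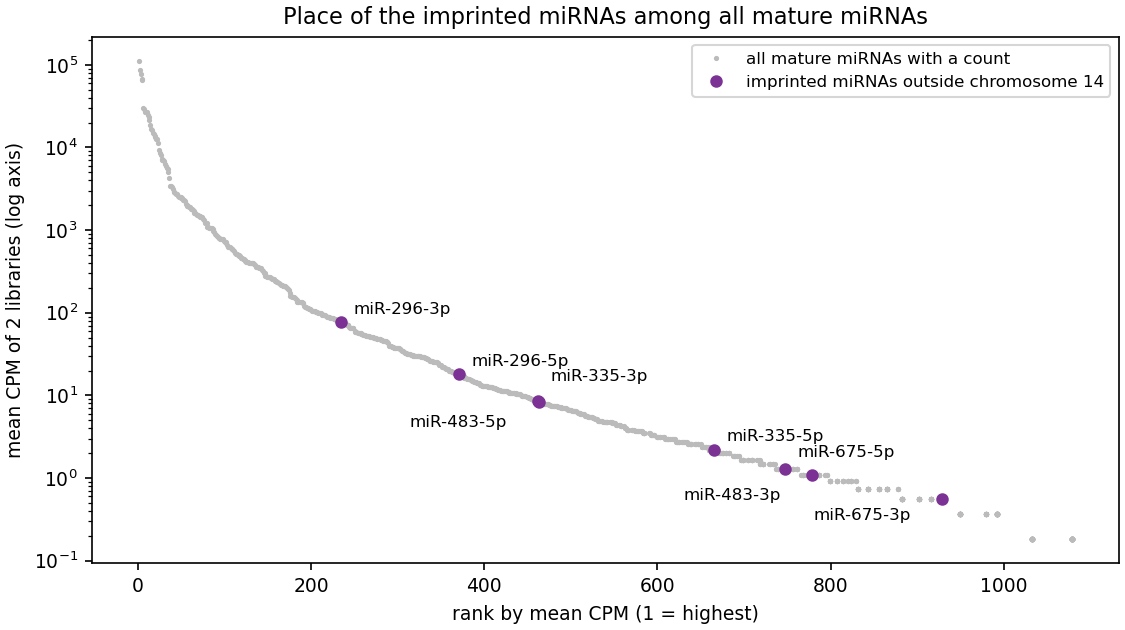
Mean CPM of the 2 libraries (log axis) against rank for every mature miRNA with a count (grey), with the arms of the hairpins examined here in purple. They run from rank 234 (miR-296-3p) to rank 929 (miR-675-3p), and miR-298, with no count, is not drawn.

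Other miRNAs with nearly the same levels place these values. For each detected arm the nearest were taken by the summed absolute difference in log2(CPM + 1) over the 2 libraries. For miR-296-3p they were miR-450a-5p, with 221 and 200 counts (a summed difference of 0.02), and miR-766-3p, with 225 and 200 (0.03). For miR-296-5p they were miR-454-5p, with 61 and 44 counts (0.22), and miR-766-5p, with 60 and 46 (0.26). Both arms of the miR-766 hairpin were thus close to those of miR-296. The nearest to miR-335-3p were miR-1273c, with 23 counts in each library, and let-7f-1-3p, with 24 and 23. The latter was also near miR-483-5p, for which miR-32-5p, with 24 and 20 counts, was nearer still. Over 2 libraries, likeness of level is all that this measure gives.

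Arm use was compared as the share of the hairpin's counts on the 3p arm. The hairpins of miR-296 and miR-335, both with more 3p than 5p counts, are shown with the mature arms in capitals, the 5p arm first (RefSeq, GRCh38.p14).
MIR296: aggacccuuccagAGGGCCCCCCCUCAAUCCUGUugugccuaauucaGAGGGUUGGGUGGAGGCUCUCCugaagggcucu
MIR335: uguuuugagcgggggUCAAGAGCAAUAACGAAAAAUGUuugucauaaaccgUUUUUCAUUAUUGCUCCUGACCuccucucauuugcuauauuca

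In miR-296 the 3p arm held 78.7% of the replicate 2 counts, with a 95% Wilson interval of 73.6 to 83.1, and 83.9% of those in replicate 8, with 78.7 to 88.0. The 3p arm of miR-335 held 78.6% (60.5 to 89.8) and 80.0% (62.7 to 90.5), on 28 and 30 counts. In miR-483 the 5p arm held most, with a 3p share of 11.1% (3.85 to 28.1) and 12.5% (4.34 to 31.0), on 27 and 24 counts. For these 3 hairpins the interval lay on one side of 50% in both libraries. For miR-675 it did not: the 3p share was 0% (0 to 49.0) of 4 counts and 50% (18.8 to 81.2) of 6 counts.

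**Figure D3:**
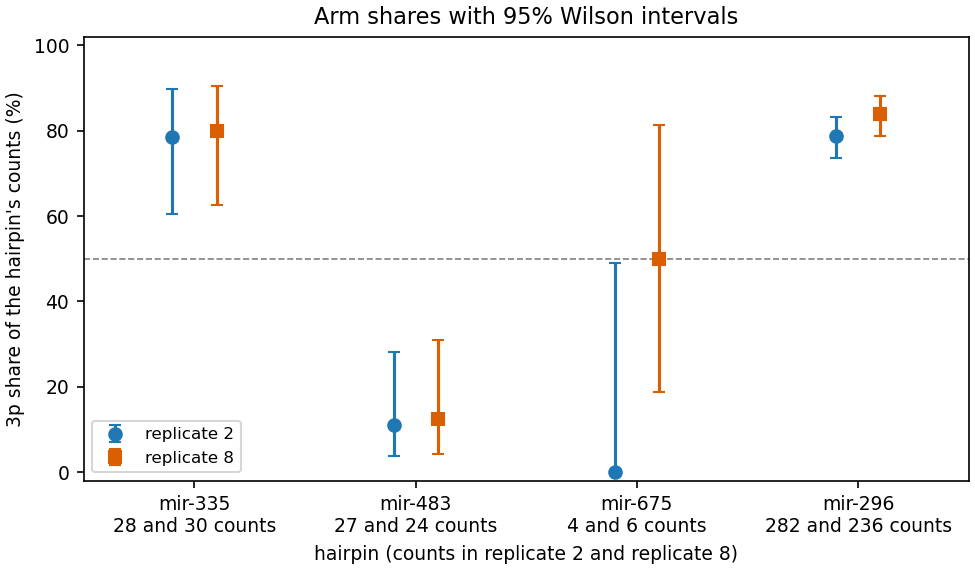
Share of each hairpin's counts on the 3p arm (%) in replicate 2 (circles) and replicate 8 (squares), with 95% Wilson intervals and a dashed line at 50%. The 3p arm holds most of miR-296 and miR-335 and the 5p arm most of miR-483, while the intervals of miR-675 are wide.

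Over the 202 hairpins with both arms listed and at least 50 counts over both in each library, the 3p arm held most counts in both libraries in 42.6%. In 28.2% the 3p share was between 10 and 90% in both libraries, and miR-296 was among these. Over all 202 hairpins the median absolute shift of the 3p share between libraries was 0.656 percentage points. Most of these hairpins lay outside the 10 to 90% range in at least 1 library, unlike miR-296. The 3p share of miR-296 was 5.18 points higher in replicate 8, and 24 hairpins shifted more. By Fisher's exact test with Benjamini-Hochberg adjustment over the 202 hairpins, this shift did not pass (p = 0.144, adjusted p = 0.384), while 19.8% of the hairpins did. The miR-335, miR-483 and miR-675 hairpins had too few counts for this test, and miR-298 has 1 listed arm. With a minimum of 10 counts miR-335 and miR-483 entered as well, and both had an adjusted p of 1.0 by the same exact test.

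The libraries were also compared miRNA by miRNA, which asks how far each level repeats and not how a condition acts. A two-sided exact binomial test took the count in replicate 8 given the sum of both, with adjustment over the 695 mature names with at least 10 summed counts. Of all these, 34.2% had an adjusted p under 0.05. Of the 9 imprinted arms, 5 had enough counts to be tested, and 0 passed by this exact binomial test. At an unadjusted p under 0.05 there was 1, miR-296-5p, where 40.3% of all did.

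That arm had the widest gap of the 5 tested. Its log2 ratio, replicate 8 over replicate 2, was -0.66 (95% interval -1.29 to -0.05, exact binomial p = 0.0264, adjusted p = 0.0718). Over the scalings and filters that kept it, the adjusted p ran from 0.0717 to 0.169, the highest with TMM-scaled library sizes, with which 0 of the 5 arms had an unadjusted p under 0.05. For miR-296-3p, the log2 ratio was -0.17 (-0.45 to 0.11), for miR-483-5p it was -0.19 (-1.11 to 0.71), and for miR-335-3p it was 0.12 (-0.77 to 1.03). For miR-335-5p, with 6 counts in each library, it was 0 within rounding. The intervals of these 4 arms contain 0, and for the arms with few counts they also contain changes of more than 1.5-fold in both directions, so a difference of that size was not detectable at this depth.

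The share of all miRNAs that passed depends on counts, so each arm was also set beside miRNAs within 2-fold of its summed counts, a window chosen after the data were seen. Near miR-296-3p, with 420 summed counts, 42.5% of 113 miRNAs passed, and 74 of them had a larger absolute log2 ratio. Near miR-296-5p, with 98 counts, 21.7% of 152 passed and 36 had a larger ratio. Near miR-335-3p and miR-483-5p, with 46 and 45 counts, 16.3% of 184 passed, and 159 and 148 of these had larger ratios. Near miR-335-5p, with 12 summed counts, 228 of 246 miRNAs had a larger ratio. Only 143 of the 246 had enough counts to be tested, and 5.59% of those passed. Each tested arm other than miR-296-5p thus differed between the libraries by less than most miRNAs of like abundance.

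**Figure D4:**
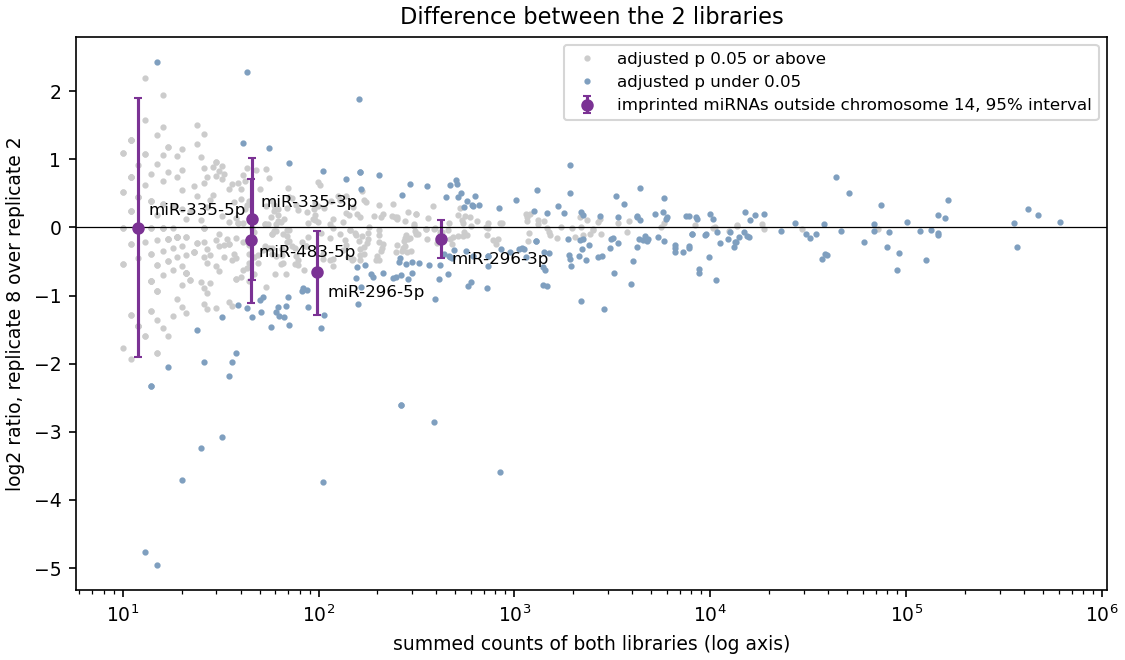
Log2 ratio of each miRNA's CPM, replicate 8 over replicate 2, against its summed counts (log axis), in blue where the exact binomial adjusted p is under 0.05 and in grey otherwise, with the 5 tested imprinted arms and their 95% intervals in purple. Of the 5 intervals, computed with library totals, only that of miR-296-5p lies apart from 0, from -1.29 to -0.05. With TMM-scaled library sizes its log2 ratio was -0.56.

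Human imprinted miRNAs are concentrated in a pair of clusters, one on chromosome 14 between DLK1 and DIO3, expressed from the maternal allele, and one on chromosome 19, expressed from the paternal allele in placenta. Of the 52 hairpins of a chromosome 14 list, 30 had a detected arm (57.7%), and of the 46 of a chromosome 19 list, 0 had one. The 5 hairpins outside these clusters, with 3 detected, had a median level of 9.36 CPM. The chromosome 14 hairpins had a median of 9.73 CPM, the chromosome 19 hairpins 0 CPM and all 1600 hairpins 0.55 CPM. Over detected hairpins alone the medians were 10.6 CPM outside the clusters, 36.0 CPM in the chromosome 14 list and 86.4 CPM over all. In the chromosome 14 list 8 hairpins were above miR-296, and its highest mature miRNA, miR-127-3p, had 2847 and 3111 counts. The summed levels were 116.9 ± 11.9 CPM outside the clusters, 4674 ± 589 CPM for chromosome 14 and 12.5 ± 7.81 CPM for chromosome 19 (SD, n = 2 each). The last was 18.0 CPM in replicate 2 and 6.97 CPM in replicate 8. Several mature names of the chromosome 19 list had identical counts in both libraries, so this sum can hold the same reads more than once. The highest mature miRNA of the chromosome 19 list, miR-512-3p, had 4 and 5 counts. These could not be ranked against the 4 and 3 of miR-675-5p. Members of a cluster can share reads and a transcript, so the hairpins are not independent and the lists were not tested against each other.

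**Figure D5:**
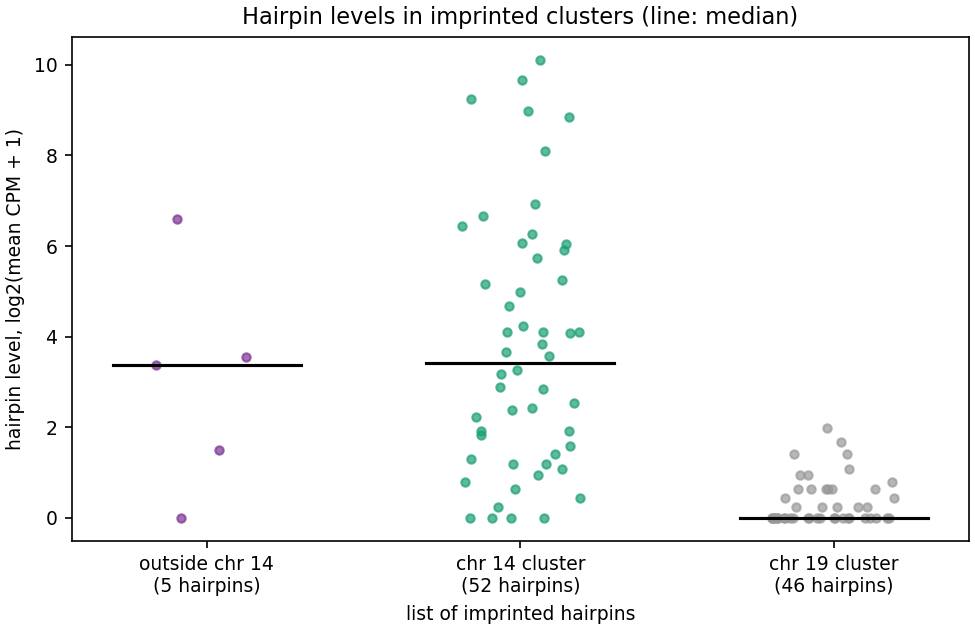
Level of each hairpin, log2(mean CPM + 1), for the 5 imprinted hairpins outside both clusters, 52 hairpins of the chromosome 14 cluster and 46 of the chromosome 19 cluster, with horizontal lines at the medians. The first 2 medians are close together, at 9.36 and 9.73 CPM, while the chromosome 14 hairpins reach far higher and the chromosome 19 hairpins lie near 0.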

How the data were processed

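Small RNA of 2 hCMEC/D3 libraries was sequenced. The authors deposited 1 table with raw read counts and RPM for each mature miRNA and hairpin. The RPM values deposited by the authors are the counts divided by 1 constant per library. Per the submitters' processing notes, the build was hg19 and CASAVA 1.9, FastQC, cutadapt and Bowtie 0.12.7 were used; the counter and the rule for reads that match several hairpins are not given in the sources used here.

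Where a mature name had several rows, the one with the most counts was kept. CPM, Wilson intervals, exact binomial and Fisher tests were computed with Python 3.11.15 and scipy 1.17.1. Log2 ratios had 0.5 counts added. TMM sizes (edgeR 4.0.16) and DESeq2 1.42.0 size factors were alternatives. Both tests were tested on simulated data. A quasi-likelihood test was not run, as there is 1 group. Hairpins were placed in GRCh37 by exact match of RefSeq sequences, MIR483 by GENCODE, and host genes are from GENCODE.

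All rows of the 5 hairpins were named, with the 2 nearest miRNAs of each detected arm, seed sharers and the highest miRNA of each other imprinted list. Members and lists were chosen with earlier results of these data known.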

Additional observations from a re-analysis of the deposited data

How the results depend on the processing

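The number of arms detected depended on the count threshold, and depth itself was not varied. Of the 9 arms, 5 lay under 10 counts in at least 1 library. The number detected was 7 at 1 count, 1 at 50 counts and 1 at 100 counts, against 4 at 10. The summed level of 116.9 CPM was 100.2 with the total over all rows or with repeated rows summed, because that total contains repeated rows. As deposited RPM it was 99.8. The RPM denominators, 3180045 in replicate 2 and 3205752 in replicate 8, were above the totals over all rows, 3167238 and 3195174. With repeated rows summed, the chromosome 14 sum was 4017 CPM and the chromosome 19 sum 14.65 CPM. Without replicate 2 or replicate 8 the summed level was 108.5 or 125.3 CPM and the 5p share of miR-296 was 16.1% or 21.3%. The chromosome 19 sum was 6.97 CPM without replicate 2 and 18.0 CPM without replicate 8, and the chromosome 14 sum was 5090 and 4257 CPM. With 2 libraries such values lie within 1 SD of the mean by construction.

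No imprinted arm passed the test between libraries under the 5 alternatives of scaling and filter tried. Of all miRNAs that passed, the share higher in replicate 8 was 31.5% as reported, 48.9% when libraries were scaled by TMM and 49.6% by DESeq2. The median log2 ratio of all miRNAs moved from -0.11 to -0.02 with TMM sizes. With either scaling the ratios of miR-335-5p and miR-483-3p, near 0, changed sign. No paired analysis was possible because there is 1 group.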
